A study of Mus musculus with 6 samples.

Results

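The genes examined here were Letmd1, the other genes of the LETM family and the genes that move calcium into and out of mitochondria, measured in brown adipose tissue (BAT). Members were taken by gene symbol, from a list made with earlier results of these data known. All 9 of them (Letmd1, Letm1, Letm2, Mcu, Micu2, Micu3, Smdt1, Slc8b1 and Vdac1) were found among the 23282 rows of the deposited counts. The tissue came from male C57BL/6N mice at 5 weeks of age, of which 3 were wild type and 3 were Letmd1 KO. The KO mice carried a knockout-first allele, derived from a single clone of ES cells, on both chromosomes and in every tissue. In this allele a lacZ and neomycin resistance cassette sits in an early intron of Letmd1 and interrupts the transcript. QuantSeq libraries hold reads from near the poly(A) tail, so that long genes do not gather more reads than short ones.

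Mitochondria take up calcium through a channel of the inner membrane, the uniporter. MCU forms its pore, and EMRE, the product of Smdt1, is the small subunit that holds the pore to its calcium sensors. MICU2 and MICU3 belong to these sensors, EF-hand proteins that set how the channel responds to calcium. Calcium reaches the channel through VDAC1, the pore of the outer membrane, and leaves the matrix through the sodium-calcium exchanger NCLX, the product of Slc8b1. LETM1 is an inner membrane protein of cation exchange, for which potassium-proton and calcium-proton exchange have both been proposed, and LETM2 and LETMD1 carry the same domain. In brown adipocytes, matrix calcium activates dehydrogenases that feed the respiratory chain used for heat production.

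Total counts lay between 6669577 and 14574273 per mouse, and 12995 genes passed a filter on low counts. Levels are given as CPM, the share of a gene in the scaled library on the edgeR scale. Up to 3 counts can underlie a gene at 0, and this floor stood for 0.176 to 0.396 CPM per library (counting error only). The TMM factors were 0.852 to 0.886 in wild-type and 1.13 to 1.17 in Letmd1 KO libraries. Without them the log2 fold change of every gene moves upwards together, and the median over all genes goes from 0.033 to 0.45. Genotypes were compared with edgeR's quasi-likelihood test, and every adjusted p below is from this test after Benjamini-Hochberg adjustment over all genes tested. All 10 markers of brown adipocytes, Ucp1 among them, were above 0 in every mouse, but their summed level was 13212 to 14364 CPM in wild-type BAT and 2151 to 3437 CPM in Letmd1 KO BAT, with 8 of the 10 lower. Over all genes tested, 22.3% were called lower and 23.7% higher. In whole tissue, fewer cells of a type and less RNA per cell cannot be told apart.

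The stretch around the start site of Letmd1 and of 3 genes that the results below turn on is shown first, since Letm1 and Smdt1 were lower and Mcu was higher in Letmd1 KO BAT. Sequences are from RefSeq on GRCm38, run 5′ to 3′ on the strand of the gene and hold 250 bases before the RefSeq start and 50 after it. For Smdt1 this start lies inside the gene span given below, which in GENCODE begins farther upstream. RefSeq promoters were found for 6 of the 9 members. The capitals mark a cyclic AMP response element.
Letmd1, chr15:100468761-100469060, plus strand: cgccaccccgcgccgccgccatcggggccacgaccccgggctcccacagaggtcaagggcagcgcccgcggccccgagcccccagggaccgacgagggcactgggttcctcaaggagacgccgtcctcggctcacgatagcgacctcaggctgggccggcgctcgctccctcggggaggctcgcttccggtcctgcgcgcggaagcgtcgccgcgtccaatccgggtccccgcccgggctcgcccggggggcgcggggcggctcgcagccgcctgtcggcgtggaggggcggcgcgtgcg
Letm1, chr5:33782668-33782967, minus strand: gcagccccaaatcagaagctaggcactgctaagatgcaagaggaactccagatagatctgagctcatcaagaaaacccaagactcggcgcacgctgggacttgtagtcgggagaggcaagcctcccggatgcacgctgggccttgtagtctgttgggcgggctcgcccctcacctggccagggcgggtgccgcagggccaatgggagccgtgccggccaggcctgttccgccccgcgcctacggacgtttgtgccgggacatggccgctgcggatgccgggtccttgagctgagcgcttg
Mcu, chr10:59616643-59616942, minus strand: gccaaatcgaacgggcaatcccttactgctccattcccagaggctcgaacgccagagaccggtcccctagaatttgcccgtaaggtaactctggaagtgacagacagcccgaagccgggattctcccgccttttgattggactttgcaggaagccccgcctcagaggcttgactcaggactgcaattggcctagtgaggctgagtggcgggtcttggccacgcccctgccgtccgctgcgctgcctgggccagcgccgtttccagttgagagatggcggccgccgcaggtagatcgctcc
Smdt1, chr15:82345796-82346095, plus strand: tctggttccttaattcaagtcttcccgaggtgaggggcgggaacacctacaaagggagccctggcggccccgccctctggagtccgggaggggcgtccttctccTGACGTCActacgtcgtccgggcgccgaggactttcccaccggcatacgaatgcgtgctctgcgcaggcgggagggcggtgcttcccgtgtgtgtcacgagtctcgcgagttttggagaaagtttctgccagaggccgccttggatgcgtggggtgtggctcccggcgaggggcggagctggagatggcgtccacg

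All of these windows were rich in G and C. The share of G and C was 79.0% for Letmd1, 64.7% for Letm1, 61.7% for Mcu and 65.3% for Smdt1, against a median of 52.7% over 32817 promoters. Both strands were searched for 5 motifs spelled out by their letters. The cyclic AMP response element TGACGTCA was found in the window of Smdt1, where it begins 146 bases before the start, and it occurs in 1.79% of all promoters. The estrogen-related receptor site TCAAGGTCA (0.424% of all promoters), the NRF1 site GCGCATGCG (1.75%), the ETS site CCGGAAGT (3.89%) and the ATF4 site TGATGCAA (0.896%) were not found in the windows of Letmd1, Letm1, Mcu, Micu2, Smdt1 and Vdac1. These matches describe letters and not bound sites.

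Letmd1, the targeted gene (chr15:100469023-100479164, plus strand), was measured first. Wild-type replicates 1 to 3 held 5658, 6490 and 5266 counts of it and the KO replicates 0, 0 and 1, so that the labels of all 6 mice matched their counts. The 3′ end that QuantSeq reads lies downstream of the cassette. In wild-type BAT the level was 661 ± 44.6 CPM (SD, n = 3), above 98.1% of the genes tested. All 3 KO mice were under the floor, and Letmd1 was at least 1668-fold lower there, against the highest floor of a KO library (adjusted p = 1.38e-08). Its loss is the design of the experiment and is not counted as a finding.

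Letm1, the best known member of the family, fell with it (chr5:33739673-33782817, minus strand). It had 445, 470 and 540 CPM in wild-type BAT and 164, 151 and 186 CPM in Letmd1 KO BAT. The lowest wild-type mouse lay far above the highest KO mouse, and the spread within each genotype was small, with coefficients of variation of 10.2% and 10.6%. Letm1 kept 34.5% of its wild-type level. On the log2 scale it fell by 1.53 (SE 0.13, adjusted p = 2.3e-05), which placed Letm1 among the lowest 3.88% of the genes tested. It was the most negative change among the members other than Letmd1, and it stayed between -1.65 and -1.11 under all 14 alternatives.

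Letm2 was a gene of low level in this tissue (chr8:25578490-25597582, minus strand), and in mice it is known mainly from the testis. It had 64, 42 and 54 counts in wild-type BAT and 14, 36 and 65 counts in Letmd1 KO BAT, or 6.13 ± 1.45 CPM against 3.37 ± 1.66 CPM (SD, n = 3 each). The genotypes overlapped. The log2 fold change of -0.86 did not pass the threshold (adjusted p = 0.111), and its 95% interval ran from -1.76 to 0.051. A decrease of the size of Letm1 therefore lies inside the interval, as does no change. Under quantile normalization Letm2 did pass, at -1.39 (adjusted p = 0.0221), whereas the value was -0.44 with library size alone, -0.41 with the muscle marker level as a covariate (adjusted p = 0.652) and -0.52 without Letmd1 KO replicate 1.

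The pore of the uniporter and its small subunit moved in opposite directions. Mcu (chr10:59446984-59616692, minus strand) had 61.3, 52.1 and 58.6 CPM in wild-type BAT and 94.8, 76.5 and 115 CPM in Letmd1 KO BAT. Every KO mouse was above every wild-type mouse, and the KO mice were more widely spread, with a coefficient of variation of 20.4% against 8.23%. Mcu rose 1.67-fold (log2 fold change 0.74, SE 0.16, adjusted p = 0.00392). Smdt1 (chr15:82338959-82349091, plus strand), the gene of EMRE, overlaps Pheta2 in GENCODE by 6785 bases on the same strand, away from its 3′ end and upstream of the RefSeq start. It had 256, 254 and 277 CPM in wild-type BAT and 151, 165 and 146 CPM in Letmd1 KO BAT. The genotypes were well apart for Smdt1 too, but in the other direction. Smdt1 fell to 58.7% of its wild-type level (log2 fold change -0.77, SE 0.10, adjusted p = 0.000312).

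The sensors of the uniporter were also divided. Micu2 (chr14:57916261-57999262, minus strand) had 29.7, 32.8 and 34.5 CPM in wild-type BAT and 46.3, 41.2 and 46.9 CPM in Letmd1 KO BAT. The ranges did not touch, and Micu2 rose 1.38-fold (log2 fold change 0.47, SE 0.13, adjusted p = 0.0127). Micu3 (chr8:40307458-40386308, plus strand), a sensor known from nerve and muscle that makes uptake more sensitive to calcium, had 25.9, 28.3 and 32.4 CPM in wild-type BAT. In Letmd1 KO BAT it had 14.4, 14.1 and 12.2 CPM, in each mouse less than in any wild-type mouse. Micu3 fell to 47.0% of its wild-type level (log2 fold change -1.09, SE 0.15, adjusted p = 0.000408).

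The call of Micu2 was the least secure among the members. Leaving out wild-type replicate 1 gave 0.41 (adjusted p = 0.0505), and leaving out Letmd1 KO replicate 3 gave 0.44 (adjusted p = 0.0512), neither of which passed.

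The exchanger that carries calcium out of the matrix had the largest increase among the members. Slc8b1 (chr5:120511168-120534024, plus strand) had 58, 31 and 17 counts in wild-type BAT and 115, 130 and 207 counts in Letmd1 KO BAT. On the CPM scale this was 6.25, 3.28 and 2.21 against 12.6, 17.2 and 12.2, and every KO mouse was above every wild-type mouse. The wild-type mice differed among themselves by more than those of any other member, with a coefficient of variation of 53.4%. Slc8b1 rose 3.57-fold (log2 fold change 1.81, SE 0.35, adjusted p = 0.00247). It nevertheless remained a gene of low level, at 14 ± 2.77 CPM (SD, n = 3) in Letmd1 KO BAT.

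Vdac1 (chr11:52360860-52389397, plus strand), the abundant pore of the outer membrane, had 382, 393 and 381 CPM in wild-type BAT and 250, 252 and 254 CPM in Letmd1 KO BAT. No other member varied so little within a genotype, with coefficients of variation of 1.79% and 0.902%. Vdac1 fell to 65.4% of its wild-type level (log2 fold change -0.61, SE 0.095, adjusted p = 0.000794). With scaling by library size alone the log2 fold change was -0.19 and no longer passed the threshold (adjusted p = 0.128).

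**Figure D1:**
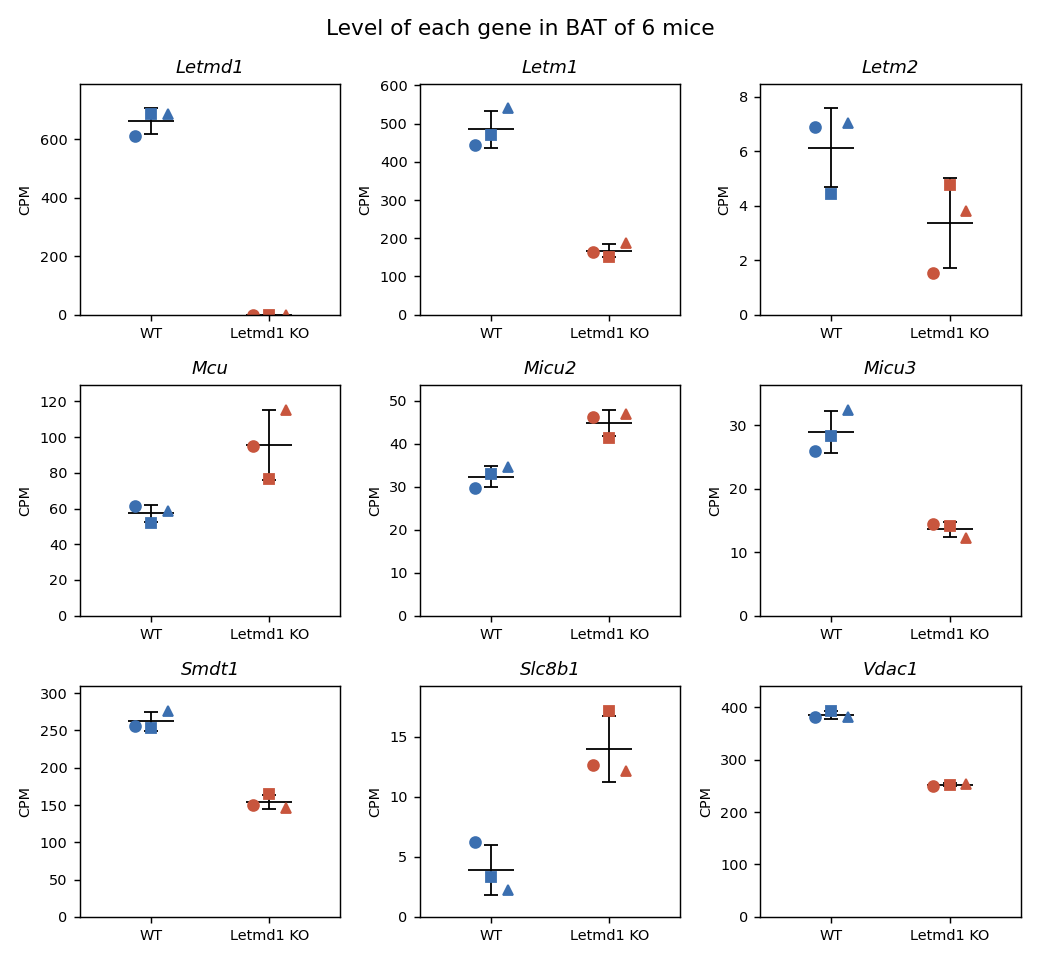
Level in CPM (y axis, from 0) of each of the 9 genes in the 3 wild-type (blue) and 3 Letmd1 KO mice (red), where circles, squares and triangles are replicates 1, 2 and 3. Bars are the mean and SD of 3 mice, and the genotypes overlap for Letm2 and are apart for the other 8 genes.

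All 9 members passed the filter on low counts, and 8 of them passed the threshold. Of these, Letmd1, Letm1, Micu3, Smdt1 and Vdac1 were lower and Mcu, Micu2 and Slc8b1 were higher in Letmd1 KO BAT. Changes were common in this tissue, since 46.0% of all genes tested passed the threshold, 22.3% lower and 23.7% higher. The same 8 members were those whose genotypes did not overlap, which was the case for 57.3% of all genes tested, 27.2% lower and 30.1% higher. A share of 8 in 9 that includes the targeted gene is therefore to be read against a high background. No member changed direction under any alternative, among them scaling by library size alone, which lifted the median of all genes by more than 0.1.

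With library size alone the log2 fold change was -1.11 for Letm1, -0.67 for Micu3 and -0.35 for Smdt1, which all still passed, and 1.17 for Mcu, 0.89 for Micu2 and 2.23 for Slc8b1. The values for Letm2, Mcu, Micu2, Micu3, Smdt1 and Vdac1 thus moved by more than 1.5 times with this choice. Quantile normalization gave 0.86 for Mcu, 0.52 for Micu2, -0.52 for Smdt1 and -0.27 for Vdac1.

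**Figure D2:**
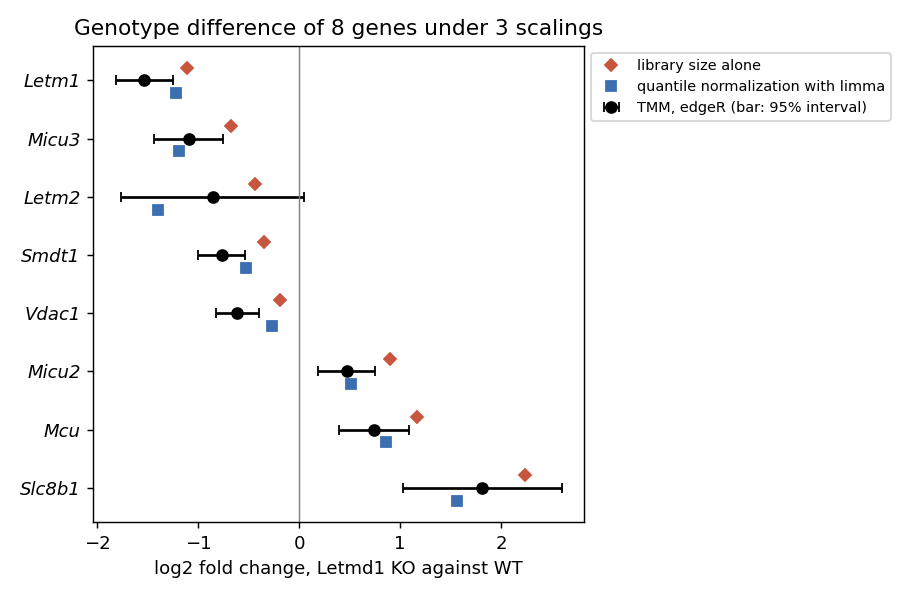
Log2 fold change of Letmd1 KO against wild-type BAT (x axis) for the 8 members other than Letmd1, with TMM scaling (black, bar is the 95% interval), library size alone (red diamonds) and quantile normalization (blue squares). Each gene keeps its side of 0 under the 3 scalings, from -1.53 for Letm1 to 1.81 for Slc8b1 with TMM, and the interval of Letm2 includes 0.

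Counts relative to Mcu within each mouse do not depend on how libraries are scaled, and 6 such ratios were compared. Smdt1 had 4.18, 4.87 and 4.71 counts per count of Mcu in wild-type replicates 1 to 3, against 1.59, 2.15 and 1.27 in the KO replicates. The log2 ratio differed by -1.49 ± 0.23 (SE) between the genotypes. For Letm1 the ratio went from 7.25, 9.0 and 9.20 to 1.73, 1.98 and 1.61, a log2 difference of -2.25 ± 0.14 (SE). Micu3 had 0.422, 0.543 and 0.554 counts per count of Mcu in wild-type BAT and 0.152, 0.186 and 0.106 in Letmd1 KO BAT. The difference was -1.80 ± 0.27 for Micu3, -1.33 ± 0.19 for Vdac1 and 1.21 ± 0.52 for Slc8b1 on the log2 scale (SE). For these 5 ratios the genotypes did not overlap, and a two-sided exact permutation test gave p = 0.1, the smallest that 3 mice against 3 allow (0.12 after adjustment over the 6 ratios). All 6 ratios share Mcu, which was higher in every KO mouse, whereas Letm1, Micu3, Smdt1 and Vdac1 were lower in every KO mouse. The separation of these 4 ratios, and so their p, follows from those levels and adds no independent evidence.

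The log2 ratio of the sensor Micu2 to Mcu differed less. Micu2 had 0.486, 0.630 and 0.589 counts per count of Mcu in wild-type BAT and 0.489, 0.539 and 0.407 in Letmd1 KO BAT. The genotypes overlapped, and the log2 difference was -0.25 ± 0.16 (SE, two-sided exact permutation p = 0.3). With 3 mice a genotype this does not show that the ratios were equal.

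**Figure D3:**
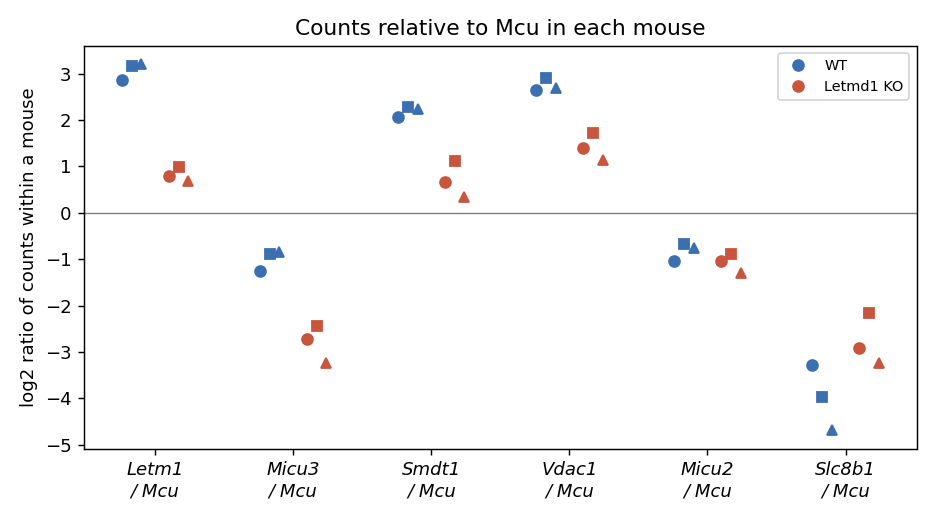
Log2 ratio of the counts of 6 genes to those of Mcu within each mouse (y axis), for wild-type (blue) and Letmd1 KO mice (red), with circles, squares and triangles for replicates 1, 2 and 3. The ratios of Letm1, Micu3, Smdt1 and Vdac1 were lower in every KO mouse, and that of Micu2 overlapped. That of Slc8b1 was higher, with Letmd1 KO replicate 3 just above wild-type replicate 1.

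Markers of other cell types differed between the mice, and the level of 2 members is given beside them. The summed level of 15 skeletal muscle markers was 86.4, 525 and 98.2 CPM in the wild-type replicates. In the Letmd1 KO replicates it was 485, 375 and 1379 CPM, and 4 of the 15 markers passed the threshold, all higher. This count is near the share of all genes tested that were called higher, 23.7%. Myl1 alone gave 76.9 CPM of the sum in wild-type replicate 1 and 91.2 CPM in replicate 3. It did not pass (log2 fold change -0.038, adjusted p = 0.933), so the sums understate how far the other markers differed. In wild-type replicate 1, 7 of the 15 markers were at 0, and in replicate 3 this held for 5, Ckm and Myh4 among them in both. Among the KO mice, Mcu was highest in replicate 3 and lowest in replicate 2, as were the muscle markers, whereas wild-type replicate 2 had the most muscle markers of its genotype and the lowest Mcu. Without wild-type replicate 2 and Letmd1 KO replicate 3, the log2 fold changes were 0.50 for Mcu (adjusted p = 0.0668) and 0.44 for Micu2 (adjusted p = 0.126), and neither passed. With the muscle level of each mouse as a covariate the values were 0.74 for Mcu (adjusted p = 0.0671) and 0.42 for Micu2 (adjusted p = 0.164), and neither passed. Letmd1, Letm1, Micu3, Smdt1, Slc8b1 and Vdac1 passed in both fits, which have fewer residual degrees of freedom.

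The summed level of 13 macrophage markers was 185 to 260 CPM in wild-type BAT and 1529 to 3754 CPM in Letmd1 KO BAT, and 13 of 13 were higher. Only Trem2 was at 0 among them, in wild-type replicates 2 and 3. Slc8b1 was highest in Letmd1 KO replicate 2, the mouse with the most macrophage markers. Among the wild-type mice, replicate 3 had the most macrophage markers (260 CPM) but the lowest Slc8b1 (2.21 CPM). Without Letmd1 KO replicate 2 the log2 fold change of Slc8b1 was 1.64 (adjusted p = 0.00774) and still passed. Letmd1 KO replicates 1 and 3, which remained, held 1773 and 1529 CPM of macrophage markers. That fit therefore does not set macrophage content apart from genotype. Markers of Schwann cells and nerve were 227 to 276 CPM in wild-type BAT and 296 to 460 CPM in Letmd1 KO BAT, with 4 of 6 tested genes higher, while Micu3 was lower. Most of these sums was S100b, at 157 to 238 CPM in wild-type and 181 to 321 CPM in KO mice, which did not pass (adjusted p = 0.228). Th was at 0 in every mouse. General adipocyte markers summed to 43629 to 49439 CPM in wild-type and 21049 to 30351 CPM in KO mice (5 of 8 lower), and endothelial markers to 685 to 786 against 470 to 601 CPM (2 of 8 lower). Over all genes tested, 22.3% were called lower and 23.7% higher, so 2 of 8 endothelial markers is near the share called lower. The part of these cell types in the level of the members was not tested.

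**Figure D4:**
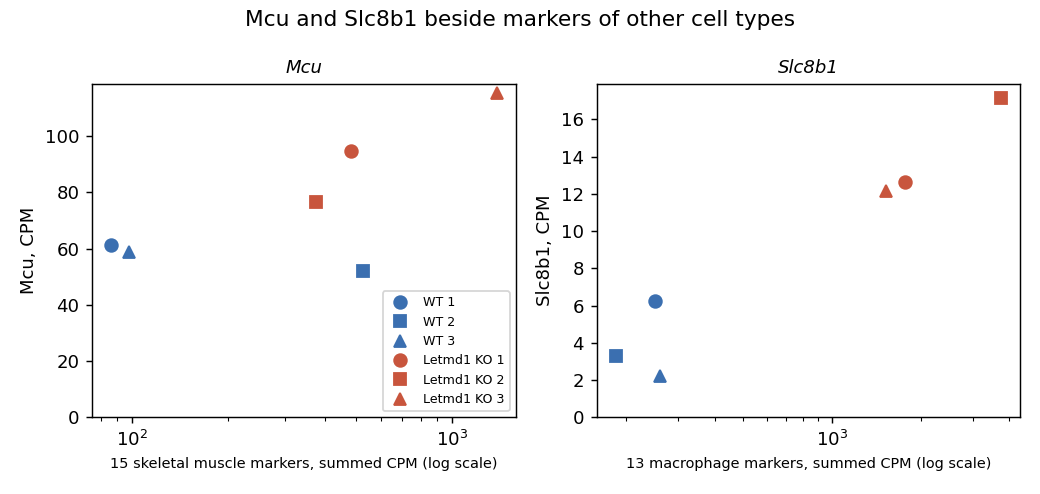
Left, Mcu in CPM (y axis) against the summed CPM of 15 skeletal muscle markers (x axis, log scale), and right, Slc8b1 against 13 macrophage markers, for the 3 wild-type (blue) and 3 Letmd1 KO mice (red), with circles, squares and triangles for replicates 1, 2 and 3. Wild-type replicate 2 has 525 CPM of muscle markers and the lowest Mcu of all mice, and Letmd1 KO replicate 2 has the highest level of both Slc8b1 and macrophage markers. Wild-type replicate 3 has the most macrophage markers of its genotype and the lowest Slc8b1. In wild-type replicates 1 and 3 most of the muscle sum is Myl1.

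Beyond the members, 49 further genes of calcium handling were grouped in 5 lists. Of the 47 that were tested, 25 fell and 12 rose in the KO mice, and their median log2 fold change was -0.39, against 0.033 over all genes, of which 22.3% were called lower and 23.7% higher. Scaled by library size alone, these genes divided into 17 lower and 21 higher. With the muscle level as a covariate 20 were lower and 6 higher, and without wild-type replicate 2 and Letmd1 KO replicate 3, 22 were lower and 9 higher. The first list held 4 genes that bind or regulate the uniporter, and all 4 passed the threshold, 3 lower and 1 higher. Mcur1, a regulator of uniporter assembly, fell from 504 ± 35.7 to 285 ± 14.2 CPM (SD, n = 3 each). Slc25a23, an ATP-magnesium carrier reported to bind MCU, fell from 164 ± 16.3 to 75.7 ± 12.4 CPM, and Maip1, listed under an older symbol and known for helping EMRE to be sorted, fell from 47.1 ± 2.71 to 33.3 ± 0.599 CPM. The call of Maip1 was lost with library size alone (-0.076), with muscle level as a covariate (-0.43) and with wild-type replicate 2 and Letmd1 KO replicate 3 left out (-0.53).

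Mcub was the one that was higher. It encodes the pore paralog that lowers uniporter activity, and it had 7, 2 and 7 counts in wild-type BAT and 69, 63 and 105 in Letmd1 KO BAT. Mcub passed the filter on low counts only through the KO mice, so it could be called higher but not lower. Its place in the count of this list is limited by that. Mcub rose by a log2 fold change of 3.55 (SE 0.44, adjusted p = 0.000211), from a wild-type level close to the floor that in replicate 2 was under it. The groups did not overlap. Over the 6 mice its CPM had the same order as the summed macrophage markers, from 0.212 in wild-type replicate 2 to 8.32 in Letmd1 KO replicate 2. The part of macrophage content in the level of Mcub was not tested.

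Inner membrane transport and the proteases and scaffolds around the uniporter were mostly lower, with 8 of 10 genes lower and none higher. The median log2 fold change was -0.79. Abcb8 and Ppif fell most, the latter encoding cyclophilin D of the permeability transition pore, with log2 fold changes of -1.04 and -0.99. Spg7, a subunit of the m-AAA protease, and Yme1l1, the i-AAA protease of the inner membrane, fell least, by 0.59 and 0.37 on the log2 scale. With library size alone Spg7 did not pass (-0.17) and Yme1l1 changed direction (0.048). Spg7 also lost its call with muscle level as a covariate (-0.60), as did Yme1l1 (-0.44), which was also not called with quantile normalization (-0.23), with wild-type replicate 2 and Letmd1 KO replicate 3 left out together (-0.31), or without wild-type replicate 2 (-0.34) or without Letmd1 KO replicate 1 (-0.35) or 3 (-0.34). Ghitm, proposed to be a calcium-proton exchanger of the inner membrane, had 1332 ± 91.8 and 1481 ± 292 CPM (SD, n = 3 each) and did not pass (adjusted p = 0.468).

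In the list of the outer membrane and its contacts with the endoplasmic reticulum, 7 of 12 genes were lower and 2 were higher, with a median of -0.45. Rmdn3, a tether of both membranes, fell from 346 ± 33.6 to 147 ± 16.9 CPM, and the calcium release channel Itpr1 fell from 118 ± 10.6 to 53.2 ± 4.46 CPM (SD, n = 3 each). The other VDAC genes were divided. Vdac2 fell as Vdac1 did, with a log2 fold change of -0.62 (adjusted p = 0.00341), whereas Vdac3 rose from 84.5 ± 0.938 to 133 ± 18.4 CPM (log2 fold change 0.66). The chaperone Hspa9, which links VDAC1 to the calcium release channel, rose by a log2 fold change of 0.51 (adjusted p = 0.0199), a call lost when wild-type replicate 1 (0.47), wild-type replicate 2 (0.46) or Letmd1 KO replicate 1 (0.46) was left out, or wild-type replicate 2 and Letmd1 KO replicate 3 together (0.39). Quantile normalization gave 1.39 for Hspa9. With muscle level as a covariate neither Hspa9 (0.50) nor Vdac3 (0.58) passed.

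The list of calcium-regulated metabolism, mostly enzymes and carriers, went in both directions, with 5 lower and 4 higher of 10 tested genes and a median of -0.0061. Gpd2, the glycerol-3-phosphate dehydrogenase that senses calcium outside the inner membrane, fell from 3282 ± 216 to 495 ± 46.1 CPM (SD, n = 3 each), a log2 fold change of -2.73. Ogdh, a calcium-activated enzyme of the citrate cycle, fell from 1761 ± 59.6 to 652 ± 119 CPM. The subunits Idh3a, Idh3b and Idh3g of isocitrate dehydrogenase had log2 fold changes between -1.14 and -1.09. Among the calcium-regulated carriers, Slc25a12 rose from 5.05 ± 0.851 to 25.0 ± 10.2 CPM and Slc25a24 from 6.93 ± 0.915 to 26.1 ± 5.20 CPM. Slc25a12, the aspartate-glutamate carrier of excitable tissue, was highest in Letmd1 KO replicate 3, the mouse with the most muscle markers. It still passed with muscle level as a covariate (log2 fold change 1.77, adjusted p = 0.0217). It also passed without Letmd1 KO replicate 3 (1.95) and without both this mouse and wild-type replicate 2 (2.04, adjusted p = 0.00326).

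In the list of the endoplasmic reticulum and plasma membrane, 2 of 11 tested genes were lower and 5 higher, with a median of 0.36. Atp2a3, a calcium pump of the endoplasmic reticulum known from blood and other nonmuscle cells, rose from 4.98 ± 0.294 to 50.1 ± 8.71 CPM, and the sodium-calcium exchanger Slc8a1 rose from 2.44 ± 0.719 to 8.80 ± 1.46 CPM (SD, n = 3 each). Stim1, the sensor of store calcium, fell from 37.7 ± 6.33 to 19.3 ± 0.950 CPM, and Tmco1, a leak channel of the store, fell by 0.79 on the log2 scale. Atp2a2, the main pump of the store in most tissues, had 266 ± 59.0 and 286 ± 30.0 CPM and did not pass (adjusted p = 0.632).

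**Figure D5:**
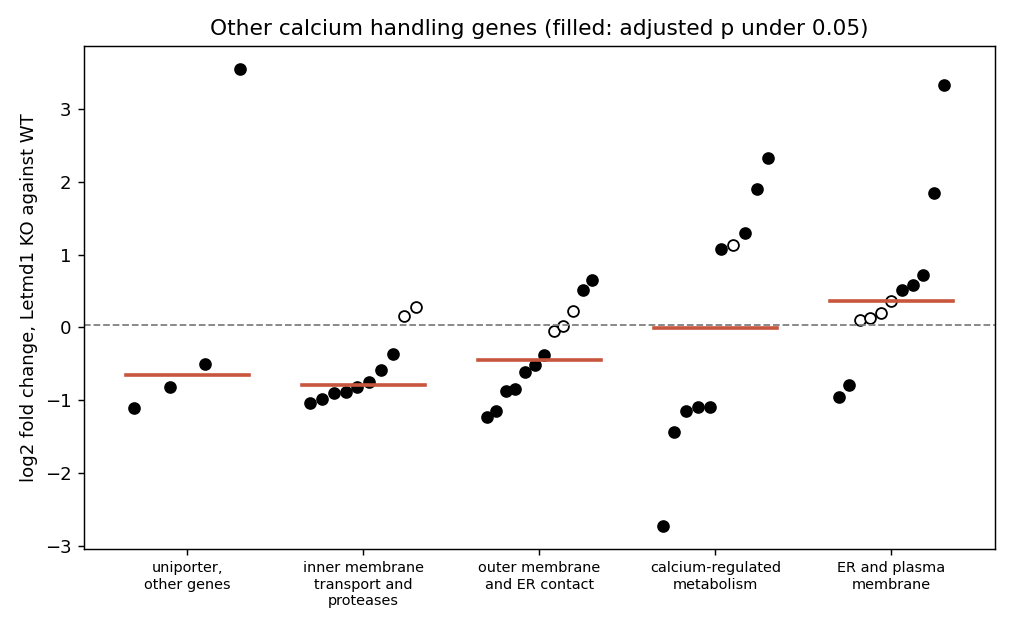
Log2 fold change of Letmd1 KO against wild-type BAT (y axis) for the 47 tested genes of 5 calcium handling lists, where filled points passed the threshold, red lines are list medians and the dashed line is the median of all genes (0.033). The list of inner membrane transport and proteases lies mostly below 0, with a median of -0.79, and the list of the endoplasmic reticulum and plasma membrane has a median of 0.36.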

How the data were processed

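RNA of BAT from 6 mice was sequenced as single-end QuantSeq 3′ libraries. The authors deposited raw counts per gene. The submitters' processing notes name Bowtie2, bedtools and the build mm10, and reads with several alignments were counted along with unique ones. Versions, the gene annotation and the use of strand are not given in the sources used here. Of 9 annotated genes that overlap 5 of the members on GRCm38 (GENCODE vM21), 0 cover a member's 3′ end. Reads shared with copies of a gene elsewhere were not tested.

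The main test was the quasi-likelihood test of edgeR 4.0.16 under R 4.3.3, with TMM scaling, a threshold of 0.05 and the default filter (at least 10 counts, and 15 in total). Alternatives used limma 3.58.1 and DESeq2 1.42.0. The standard error is the log2 fold change divided by the root of the F statistic. Log2 CPM used a prior count of 2, and ratios a pseudocount of 0.5. On counts simulated for Letmd1 KO against wild-type BAT over 12675 genes, edgeR recovered 60 of 97 genes changed by 1 and 90 of 99 changed by 2 on the log2 scale, with 8 calls among 12479 unchanged genes. Few genes differed by design in those counts, whereas 46% of the genes tested passed the threshold in the mice. How edgeR performs when that many genes differ was not tested.

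The members and lists were chosen with earlier results of these data known. Named are all members, all genes of the uniporter list, in each other list the 2 lowest and the 2 highest genes past the threshold, and the 5 genes most like Letmd1. Vdac2, the Idh3 genes, Ghitm and Atp2a2 were named after their values were seen. A further gene is not reported here and was left out of the lists, the ratios and their counts and adjustment. No library was a repeat of another (chi-square over its degrees of freedom 11.5 to 34.0 between libraries of a genotype). The p-values of edgeR set the difference between genotypes against the spread between mice of a genotype, for these 6 samples only. Scaling, filters, DESeq2, the replicate number as a block, muscle level and left-out mice were tried as alternatives.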

Additional observations from a re-analysis of the deposited data

How the results depend on the processing

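The direction of all 9 members held under every alternative run, over 125 alternative values, of which 117 also kept their side of the threshold, 7 lost the call and 1 gained it. The calls lost were those of Mcu, Micu2 and Vdac1 given in the report, and the call gained was that of Letm2. For 20 further named genes, 261 of 279 alternative values kept direction and call, 17 lost the call and 1 changed direction, that of Yme1l1 with library size alone (0.048). That change is of the size of the shift of all genes under this scaling. Members called numbered 8, and 7 to 8 when each mouse was left out. Calcium handling genes called numbered 37, 34 to 37 without each mouse, 26 with muscle level as a covariate and 31 without wild-type replicate 2 and Letmd1 KO replicate 3. Over all genes 5978 were called, 4842 to 5868 without each mouse, 3493 with muscle level as a covariate and 3889 without wild-type replicate 2 and Letmd1 KO replicate 3, both of which leave fewer residual degrees of freedom. With library size alone 81.2% of the calls over all genes were higher, against 51.6% with TMM, and among the calcium handling genes 55.3% against 32.4%.

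Same-numbered mice did not deviate together (correlations across genes of 0.069, -0.11 and -0.087), and wild-type replicate 2 correlated best with Letmd1 KO replicate 3 (0.19). All of these correlations were weak, and with so few mice they cannot tell whether the numbers pair the mice. With the replicate number as a block, 5599 genes, 8 members and 36 calcium handling genes passed, and the block changed no call of a member. For the ratios to Mcu all 48 alternative values kept their direction. When each mouse was left out, the log2 difference was -0.36 to -0.14 for Micu2, -1.98 to -1.58 for Micu3, -1.69 to -1.31 for Smdt1, 0.86 to 1.56 for Slc8b1, -1.48 to -1.19 for Vdac1 and -2.36 to -2.19 for Letm1. Letm2 could not be tested under the filter at a mean of 50 counts. Depth limits the genes with few counts, among them Letm2, Slc8b1 and Mcub. Of the other named genes, values that moved by more than 1.5 times but kept their call were, with library size alone, Mcur1 (-0.40), Slc25a23 (-0.69), Abcb8 (-0.62), Ppif (-0.57), Rmdn3 (-0.81), Itpr1 (-0.72), Hspa9 (0.94), Vdac3 (1.08), Stim1 (-0.54) and Tmco1 (-0.37), and with quantile normalization Mcur1 (-0.46), Hspa9 (1.39) and Ogdh (-0.70).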

Other observations

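The genes whose levels over the 6 mice were most like those of Letmd1 were sought among all genes tested, by Pearson's r of log2 CPM. Because the mice fall into 2 genotypes, r over all mice mainly measures how far the genotypes lie apart relative to the spread within them, and it is given as a description. The 5 with the highest r were Ntrk3, Slc25a20, Khk, Qdpr and Vdac1, with r between 0.9989 and 0.9995. Ntrk3, the receptor of neurotrophin 3, had 336 ± 12.0 CPM in wild-type and 26.6 ± 0.611 CPM in Letmd1 KO BAT (SD, n = 3 each). The carnitine-acylcarnitine carrier Slc25a20 had 870 ± 8.0 and 243 ± 8.47 CPM, the fructose kinase Khk had 17.7 ± 0.294 and 8.09 ± 0.313 CPM, and Qdpr, which regenerates tetrahydrobiopterin, had 229 ± 4.21 and 120 ± 0.764 CPM. In all of these, as in Vdac1, the mice of a genotype differed by little.

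Among the members themselves, the nearest partner by the same measure was Letmd1 for Letm1 (r = 0.991) and for Vdac1, Mcu for Micu2 (r = 0.907) and for Slc8b1 (r = 0.775), and Smdt1 for Micu3 (r = 0.989) and for Letm2 (r = 0.726).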
